A study of Mus musculus with 2 samples.

Results

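Transcripts of 10 genes for proteins that fetal hepatocytes secrete were followed in LSK CD48- cells, a fraction sorted from mouse fetal liver (FL) to enrich hematopoietic stem cells (HSCs). The genes were Afp, Alb, Apoa1, Apoa2, Apob, Ahsg, Ttr, Trf, Fgb and Serpina1a, and all 10 were among the 23284 gene symbols listed. They were taken by symbol from textbook knowledge of the liver and not by a rule on their values. Earlier results of these data were known when they were chosen. RNA-seq had been performed on 1 WT and 1 ESAM-null library from E14.5 fetuses, so no difference here has a replicate check and no p-value is given. ESAM-null fetuses were homozygous for a conventional knockout of Esam, an adhesion molecule of endothelial cells and HSCs, so the allele was carried by every cell of the fetus, endothelium included. No other engineered allele is named for either group. The LSK gate keeps cells that lack lineage markers and carry Sca-1 and a high level of c-Kit. Strain background, fetus number and cell number per library were not stated in the sources used. The sample labels have the sorted cells placed in methylcellulose colony medium and incubated in both groups, whereas the paper describes sorted FL cells. The values below are taken as belonging to cells of the sort.

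The fetal liver is at once a blood-forming organ and a young metabolic organ, in which HSCs and erythroid cells lie among hepatoblasts. Hepatoblasts and hepatocytes pour the main plasma proteins into the circulation and use the fetal protein Afp, whose expression is shut down after birth, together with Alb. These genes are driven by a network of liver-enriched transcription factors that includes Hnf4a and the Foxa family, and none of them defines an HSC.

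FPKM (fragments per kilobase of transcript, scaled to the fragments of the library) was above 0 for 14305 genes in the WT library and for 13039 in the ESAM-null library. Read numbers were approximated from the steps between the lowest FPKM values and from transcript lengths, which gave about 1.02e+07 reads behind the WT values and 1.25e+07 behind the ESAM-null values. Every interval of a single gene below is an exact 95% interval of these approximate reads. The interval of the summed FPKM pools reads of genes of unlike length, so it is not exact and may be too narrow. All intervals cover counting error only, since amplified reads without molecular identifiers are not independent molecules. Esam itself had 118 FPKM in WT, and in the library labelled ESAM-null it was 9.69-fold lower but not at 0, with 12.1 FPKM from about 206 reads. Which exons these reads came from is not in the values. Of the genes of the gate, Kit had 94.4 and 76.4 FPKM in WT and ESAM-null and Ly6a, which encodes Sca-1, had 99.8 and 96.7 FPKM, and transcripts of Cd48, whose protein the sorted cells lack at the surface, were at 16.6 and 22.0 FPKM.

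The 10 genes were a small part of either library and did not all differ in 1 direction. Their FPKM summed to 42.4 in WT and 37.1 in ESAM-null, which is 0.00564% and 0.00407% of all FPKM, and the ratio of ESAM-null to WT was 0.875 (interval 0.791 to 0.966). Trf alone made up 76.7% of the sum in WT and 61.6% in ESAM-null. Without Trf the sums were 9.90 FPKM in WT against 14.2 in ESAM-null, a ratio of 1.44, so the direction of the sum rested on that gene. Of the 10 genes, 9 were above 0 in WT and 3 in ESAM-null, and Fgb was listed at 0 in both. The label of hepatocyte transcripts therefore holds for the genes and not for the cells, since most of the set lay at or near 0 in cells in which Kit and Ly6a were high. In a bulk library, fewer cells of a type and less of an RNA in each cell cannot be told apart.

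**Figure D1:**
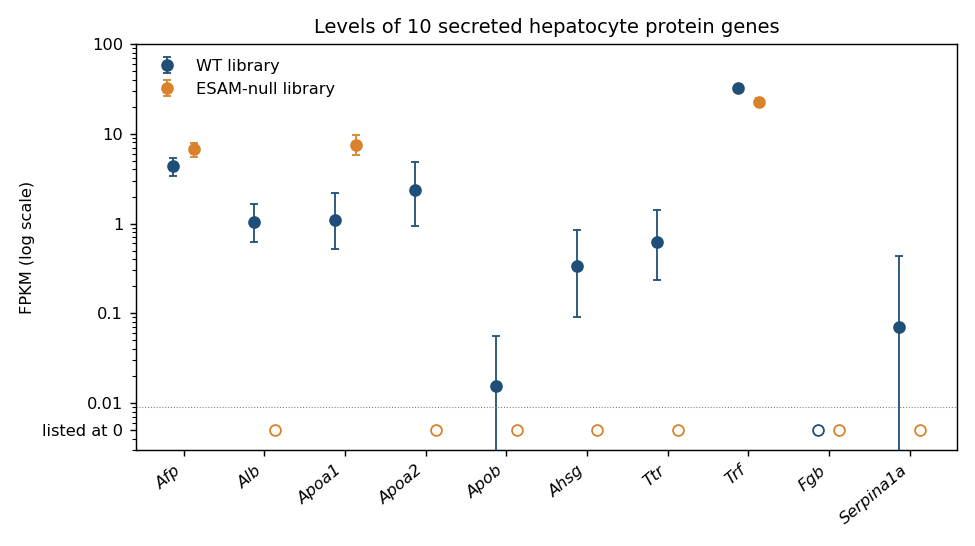
FPKM (log scale) of the 10 genes in the WT library (blue) and the ESAM-null library (orange), with bars for the 95% counting interval; open circles below the dotted line are values listed at 0. Trf is the highest gene in both libraries at 32.5 and 22.8 FPKM, Afp and Apoa1 are higher in ESAM-null, and 6 genes are above 0 in WT alone.

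Trf encodes transferrin, the plasma carrier that delivers iron to cells and above all to erythroblasts, and it is also made by cells outside the liver, such as oligodendrocytes and Sertoli cells. It had 32.5 FPKM in WT against 22.8 in ESAM-null, from about 723 and 554 reads. The level was 1.42-fold lower in ESAM-null (interval 1.27 to 1.59), a difference outside counting error but short of 2-fold. Trf stood above 75.7% of the genes detected in WT and above 66.4% of those detected in ESAM-null, far from the other 9 genes on the same per-length scale. In WT it was 31.2 times as high as Alb and 7.48 times as high as Afp, whereas in adult and fetal hepatocytes albumin is among the most abundant transcripts. In ESAM-null it was 3.41 times as high as Afp.

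The gene lies on chromosome 9 from 103204001 to 103230444 on the minus strand of GRCm38 (the build also called mm10), 65.7 Mb from Esam on the same chromosome. A second annotated record on the same strand, Gm20425, covers 78.6% of the 75-base windows of the Trf transcript and has no value of its own here. The Trf value may therefore hold reads of that record, which was not tested. Srprb, a signal recognition particle receptor subunit 1.86 kb away, had 28.1 FPKM in WT against 32.6 in ESAM-null. The receptors that take up transferrin were at like levels in both libraries. Tfrc, the transferrin receptor of dividing and erythroid cells, had 8.83 FPKM in WT against 8.84 in ESAM-null, with an interval of the ratio from 0.871 to 1.15. Tfr2, the second receptor, had 31.9 and 33.4 FPKM, a ratio of 1.05 (interval 0.952 to 1.15).

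Alb and Afp are sister genes of one family and stood apart in these libraries. Albumin is the main carrier of fatty acids and other small molecules in plasma, and alpha-fetoprotein is its fetal relative. Afp had 4.35 FPKM in WT against 6.69 in ESAM-null, from about 76 and 127 reads, which is 1.54-fold higher in ESAM-null (interval 1.15 to 2.07). Alb had 1.04 FPKM in WT, from about 18 reads, and was listed at 0 in ESAM-null, where 3 reads would have been 0.160 FPKM. Afp was thus the higher of the pair in both libraries, by 4.18 times in WT, and the pair did not move in the same direction.

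Both genes lie in the same orientation on chromosome 5 of GRCm38, Alb from 90460897 to 90476602 and Afp from 90490737 to 90508907, 14.1 kb apart. The next gene of the family, Afm, had 0.117 FPKM in WT and was listed at 0 in ESAM-null, and Ankrd17 on the other side of Alb, an ankyrin repeat gene used in many cells, had 9.57 and 10.6 FPKM. An antisense record, Gm43449, overlaps Afp, and the library kit is not one that marks strand, so reads of the pair could not be told apart. The 120 bases before the RefSeq transcript start of each gene (GRCm38.p6, plus strand) are shown because they are the proximal promoters of the neighbours that differed in direction. Capitals mark exact matches to GTTAAT, a short motif of liver gene promoters, and to TATAAA, the TATA box.
Alb, chr5:90460750-90460869: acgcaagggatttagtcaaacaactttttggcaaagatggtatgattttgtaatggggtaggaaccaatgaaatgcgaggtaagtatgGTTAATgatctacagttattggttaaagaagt
Afp, chr5:90490594-90490713: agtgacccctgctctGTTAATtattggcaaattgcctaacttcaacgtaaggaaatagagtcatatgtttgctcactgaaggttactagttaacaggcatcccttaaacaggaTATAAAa

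GTTAAT lay 32 to 27 bases before the RefSeq start of Alb and 105 to 100 bases before that of Afp. TATAAA lay 7 to 2 bases before the RefSeq start of Afp, and farther from the gene start given above. RefSeq promoters of 8 of the 10 genes were matched, each from 250 bases before to 50 bases after the start, and searched on both strands. A gene was counted when any of its promoters held the motif, whereas the shares over all promoters are per promoter, which can favour the genes. GTTAAT was found in 4 of the 8 (Afp, Alb, Fgb and Serpina1a), against 7.10% of 32851 promoters. TATAAA was found in 3 (Afp, Apoa2 and Apob), against 13.6% of promoters. TGTTTAC, a site of forkhead proteins, and AAAGTCC, part of the site of HNF4A, were each found in 1 (Apoa2), against 3.65% and 4.21%. Genes with GTTAAT were found on either side: Afp was higher in ESAM-null, Alb and Serpina1a were above 0 in WT alone, and Fgb was at 0 in both.

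The apolipoproteins, which hold lipid in plasma particles, did not share 1 direction. Apoa1 encodes the main protein of high-density lipoprotein. It had 1.09 FPKM in WT against 7.52 in ESAM-null, from about 9 and 64 reads, and was 6.90-fold higher in ESAM-null (interval 3.24 to 14.9, log2 ratio 2.79). Of the 3 genes above 0 in both libraries it had the widest difference, and it made up 2.58% of the summed FPKM of the 10 genes in WT but 20.3% in ESAM-null. Apoa1 was below Afp in WT, where Afp was 3.98 times as high, and a little above it in ESAM-null, where Afp was 0.889 times as high.

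Apoa2, the other main protein of high-density lipoprotein, had 2.37 FPKM in WT from about 7 reads and was listed at 0 in ESAM-null, where 3 reads would have been 0.924 FPKM. Its short transcript of 518 bases makes 1 read worth more FPKM than in the other genes. Apob, the large scaffold protein of low-density and very-low-density lipoprotein, had 0.0155 FPKM in WT from about 2 reads and was listed at 0 in ESAM-null.

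Apoa1 lies on chromosome 9 of GRCm38 from 46228580 to 46230466, 8.69 Mb from Esam, in a cluster of apolipoprotein genes. Its cluster neighbours Apoc3, Apoa4 and Apoa5 were listed at 0 in both libraries. Sik3, a kinase gene on the other side, had 5.93 FPKM in WT against 6.28 in ESAM-null. The Apoa1 value in ESAM-null was therefore not shared by the nearby apolipoprotein genes. Scarb1, the receptor that takes up lipid from high-density lipoprotein, had 49.6 FPKM in WT against 38.3 in ESAM-null, a ratio of 0.773 (interval 0.707 to 0.845).

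Ttr, Ahsg, Fgb and Serpina1a were at the edge of detection, with at most 6 reads in WT and none in ESAM-null. Ttr, which encodes transthyretin, the carrier of thyroxine and of retinol-binding protein, had 0.628 FPKM in WT from about 6 reads. Ahsg, which encodes fetuin-A, a protein that binds calcium phosphate, had 0.335 FPKM from about 4 reads. Both were listed at 0 in ESAM-null, where 3 reads would have been 0.298 FPKM for Ttr and 0.229 FPKM for Ahsg. Fgb, the beta chain of fibrinogen, was listed at 0 in both libraries, as were Fga and Fgg, which encode the other fibrinogen chains and lie beside it on chromosome 3. Plrg1, a splicing factor gene on the other side of Fgb, had 45.9 and 81.7 FPKM.

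Serpina1a encodes alpha-1 antitrypsin, the inhibitor of neutrophil elastase. It had 0.0699 FPKM in WT, from about 1 read, and was listed at 0 in ESAM-null. The mouse carries several near-identical copies of this gene side by side on chromosome 12, and 57.5% of the 75-base windows of the Serpina1a transcript occur in another gene. Serpina1b, the copy with the most signal, had 1.05 FPKM in WT from about 12 reads and was listed at 0 in ESAM-null, and Serpina1c, Serpina1d and Serpina1e were listed at 0 in both. The copies summed to 1.11 FPKM in WT, and this sum is surer than the value of any 1 copy. Over the 1239 aligned coding bases, Serpina1a and Serpina1b differed at 37, an identity of 97.0%.

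Counts of the 10 genes were read against all genes. With at least 1 FPKM in either library, 5 of the 10 could be compared: 3 of the 5 differed by at least 2-fold, as did 20.2% of 12066 genes. Of these, Alb and Apoa2 were on the lower side in ESAM-null, with 12.8% of all genes, and Apoa1 was on the higher side, with 7.42%. Afp and Trf were neither. Alb and Apoa2 reached 1 FPKM through WT alone and could only be lower, so their count carries no weight of its own. The median log2 ratio of the 3 genes above 0 in both libraries was 0.62, beside 0.011 for all genes with at least 1 FPKM. With Alb, Apoa2, Ahsg and Ttr set at 3 reads in ESAM-null the median of 7 genes was -0.55, so the sign of the median depends on how the zeros are treated.

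Of the 9 detected genes, 6 (Alb, Apoa2, Apob, Ahsg, Ttr and Serpina1a) were detected in WT but not in ESAM-null, as were 11.3% of all genes detected in either library. None was the reverse, as were 2.71%. Together with Fgb, which was at 0 in both as were 36.9% of all genes, they had 4.46 FPKM in WT from about 38 reads and 0 FPKM in ESAM-null. Over 3 reads in WT and 0 in ESAM-null was met by 4 (Alb, Apoa2, Ahsg and Ttr) of the 7 genes with over 3 reads in either library. Of the 13610 genes of any kind with over 3 reads in either library, 7.64% met this and 1.82% met the reverse.

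Up to 30 FPKM, the share of genes at 0 in ESAM-null was lower the higher their level in WT. Among genes of any kind below 0.1 FPKM in WT, where Apob and Serpina1a lie, 63.7% were listed at 0 in ESAM-null, and at 0.3 to 1 FPKM, where Ahsg and Ttr lie, 40.6% were. At 1 to 3 FPKM, where Alb, Apoa1 and Apoa2 lie, 12.3% were at 0 in ESAM-null, and this held for 2 of the 3. At 3 to 10 FPKM, the level of Afp in WT, the share was 1.03%. In the other direction the share at 0 in WT was lower at each of these levels, for example 5.45% at 1 to 3 FPKM in ESAM-null. A listed 0 also occurs at high levels, since 9 of the 2432 genes at 30 to 100 FPKM in WT were at 0 in ESAM-null, and such a value may be a failed estimate and not a lack of reads.

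**Figure D2:**
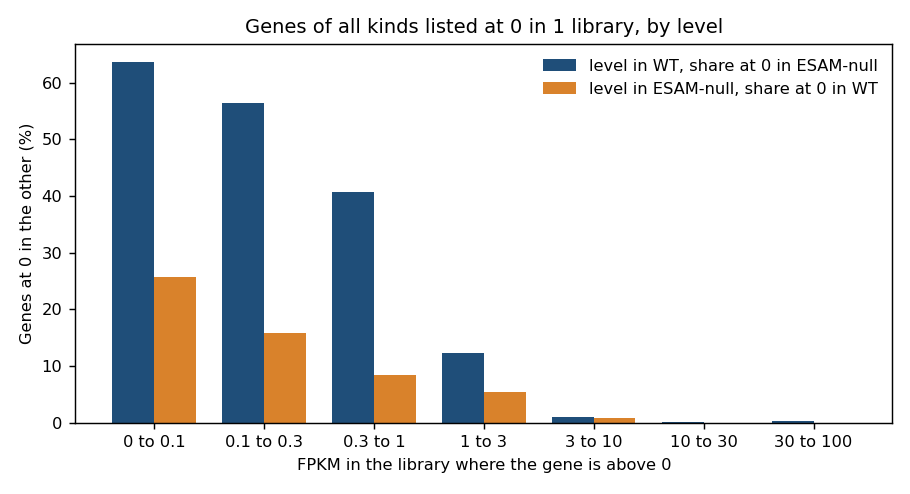
Percent of all genes that are listed at 0 in the other library, by FPKM in the library where they are above 0, with levels in WT in blue and levels in ESAM-null in orange. The share at 0 in ESAM-null falls from 63.7% below 0.1 FPKM to 12.3% at 1 to 3 FPKM and is above the reverse share at each level shown.

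Most other plasma protein genes of the hepatocyte were also at 0 or low. Of 38 such genes, 16 were above 0 in WT and 8 in ESAM-null, and 20 were listed at 0 in both, beside 36.9% of all genes. In WT alone 10 were above 0, and in ESAM-null alone 2, beside 11.3% and 2.71% of all detected genes. The 2 were Ambp, the precursor of alpha-1-microglobulin and bikunin, at 2.85 FPKM from about 31 reads, and Spp2, a secreted phosphoprotein, at 2.65 FPKM from about 20 reads. In ESAM-null both lay below Apoa1 and Afp, and in WT both were listed at 0. With the 10 genes added, 25 of 48 plasma protein genes were above 0 in WT and 11 in ESAM-null.

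The plasma protein genes at higher levels differed by less than 2-fold. Apoe, an apolipoprotein that many cells including macrophages make, had 475 FPKM in WT against 491 in ESAM-null, a ratio of 1.03 (interval 0.997 to 1.07), and was 14.6 times as high as Trf in WT. Serpinf1, a secreted serpin also known as PEDF, had 64.7 and 111 FPKM, a ratio of 1.72 (interval 1.59 to 1.86). Apoc1, an inhibitor of lipoprotein clearance, had 17.1 and 21.5 FPKM, a ratio of 1.26 (interval 0.876 to 1.84). In all, 6 of the 38 reached 1 FPKM. Of these, Serpina1b was at least 2-fold lower (12.8% of all genes were), and Ambp and Spp2 were higher (7.42% were). Apoe, Serpinf1 and Apoc1 were neither. Serpina1b reached 1 FPKM through WT alone, and Ambp and Spp2 through ESAM-null alone. The direction of each was fixed by this, so their counts carry no weight of their own.

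**Figure D3:**
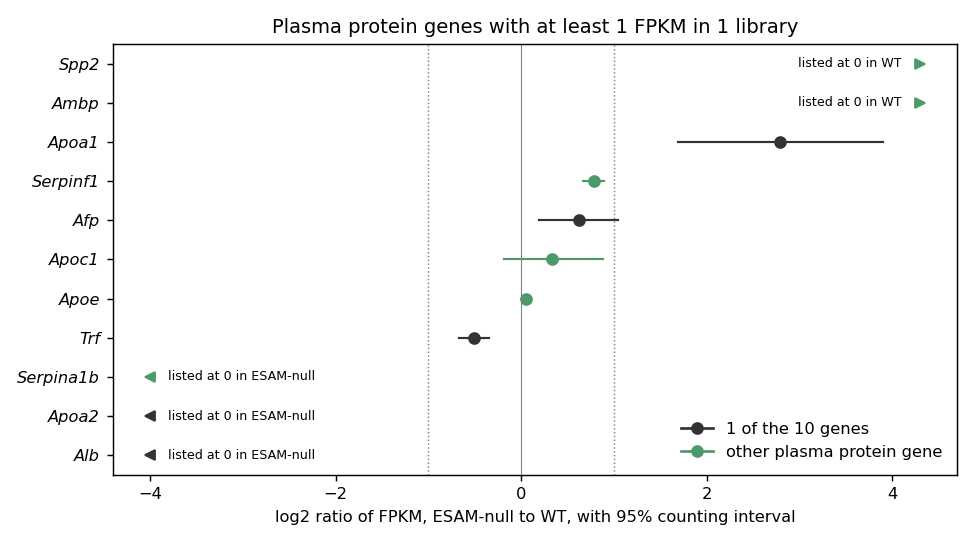
Log2 of the FPKM ratio (ESAM-null over WT) for the plasma protein genes with at least 1 FPKM in either library, with lines for the 95% counting interval, black for the 10 genes and green for the others; triangles mark genes with a value of 0 on one side, for which no ratio is drawn, and dotted lines mark 2-fold. Apoa1 lies at 2.79, Afp at 0.62 and Trf at -0.51.

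The liver-enriched regulators were found in part. Of 16 hepatocyte transcription factors, 8 were above 0 in WT and 5 in ESAM-null. In both libraries 7 were listed at 0, among them Foxa2 and Onecut1, beside 36.9% of all genes. Hnf4a, the nuclear receptor at the centre of the hepatocyte network, had 3.81 FPKM in WT against 2.32 in ESAM-null, a ratio of 0.611 (interval 0.469 to 0.792). Foxa3, a forkhead factor, had 1.16 and 4.68 FPKM, 4.05-fold higher in ESAM-null (interval 2.47 to 6.94), and was the 1 of the 4 factors with at least 1 FPKM to pass 2-fold, where 7.42% of all genes were higher. Nr0b2, a repressor of bile acid synthesis genes, had 6.52 and 3.75 FPKM. Hhex, a homeobox factor that blood and endothelial progenitors also use, had 157 and 147 FPKM. In WT alone 4 factors were above 0 and in ESAM-null alone 1, beside 11.3% and 2.71% of all detected genes. Of the 4, Prox1 had 0.539 FPKM in WT from about 39 reads and Cebpa had 0.305 FPKM from about 7 reads.

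Among 11 surface and keratin genes, 1 of the 4 with at least 1 FPKM passed 2-fold, again beside 7.42% of all genes on the higher side. It was Gpc3, a glypican of hepatoblasts, at 3.04 FPKM in WT against 8.09 in ESAM-null, a ratio of 2.66 (interval 1.98 to 3.70). Krt18 had 48.1 and 82.4 FPKM, whereas Krt8, which encodes its filament partner in hepatocytes, had 0.0664 FPKM in WT and was listed at 0 in ESAM-null. Dlk1, a surface protein of hepatoblasts, had 33.5 and 34.3 FPKM, and Epcam had 1.89 and 2.26 FPKM. Among 20 metabolic enzymes, 12 were listed at 0 in both libraries, beside 36.9% of all genes. Both enzymes with at least 1 FPKM were past 2-fold on the higher side in ESAM-null, beside 7.42% of all genes. The 2 were Ass1, a urea cycle enzyme, at 5.75 and 12.7 FPKM, and Ttpa, the vitamin E transfer protein, at 9.95 and 21.1 FPKM. In WT alone 5 enzymes were above 0 and in ESAM-null alone 1, beside 11.3% and 2.71% of all detected genes. Among the 5 were Arg1 and Fbp1, at 0.919 and 0.779 FPKM.

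Of 15 receptors and partners of the plasma proteins, 10 reached 1 FPKM, of which 2 passed 2-fold on the lower side in ESAM-null and none on the higher, beside 12.8% and 7.42% of all genes. The 2 were integrin chains that bind fibrinogen, Itga2b at 5.05 FPKM in WT against 2.23 in ESAM-null and Itgam at 5.71 and 2.70 FPKM. Fcgrt, the receptor that rescues albumin from breakdown, had 13.3 and 16.7 FPKM. Elane, which encodes the elastase that Serpina1a inhibits, was listed at 0 in both libraries, whereas the related protease gene Prtn3 had 186 and 193 FPKM.

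Markers of other cells of the fetal liver were not level between the libraries either. Of 12 macrophage markers, 10 were above 0 in WT and 4 in ESAM-null, with sums of 30.3 and 30.6 FPKM. In WT alone 6 were above 0, beside 11.3% of all detected genes, among them C1qa at 2.91 FPKM, Cd5l at 1.10 FPKM, Marco at 1.07 FPKM and Emr1 at 0.698 FPKM, and Timd4 and Vsig4 were at 0 in both. The other 4 did not differ in 1 direction: C1qb had 3.85 and 1.94 FPKM, whereas C1qc had 3.38 and 5.07 FPKM, Csf1r had 2.17 and 3.59 FPKM and Cd68 had 14.2 and 19.98 FPKM. Of 12 stellate and mesenchymal markers, 7 were above 0 in WT and 5 in ESAM-null, with sums of 2.29 and 0.775 FPKM, and Acta2, Reln, Lrat and Hand2 were at 0 in both. Of 11 sinusoidal endothelial markers, 11 were above 0 in WT and 9 in ESAM-null, with sums of 81.8 and 98.5 FPKM. Of the 8 endothelial markers that reached 1 FPKM, 3 were past 2-fold on the higher side and 0 on the lower, beside 7.42% and 12.8% of all genes. They were Cdh5 at 0.954 and 3.33 FPKM, Oit3 at 0.423 and 2.53 FPKM, and Stab1 at 0.626 and 1.36 FPKM. All 3 reached 1 FPKM through ESAM-null alone and could only be higher, so their count carries no weight of its own. The other 5 did not differ in 1 direction. Emcn had 43.2 and 60.0 FPKM and Tek had 10.9 and 16.3 FPKM. Pecam1 had 20.8 and 12.1 FPKM, Kdr had 1.33 and 0.780 FPKM, and Clec4g had 1.86 and 1.71 FPKM. Below 1 FPKM, Stab2 had 0.0401 and 0.492 FPKM. Lyve1 and Fcgr2b had 0.884 and 0.797 FPKM in WT, and ESAM-null had 0 for both. Of 10 maturing erythroid genes, 10 were above 0 in WT and 9 in ESAM-null, with sums of 1742 and 979 FPKM, and of the 9 that reached 1 FPKM, 5 were past 2-fold on the lower side, beside 12.8% of all genes. Of the 5, Alas2, Slc4a1 and Epb4.2 reached 1 FPKM through WT alone and could only be lower, so they carry no weight in this count. Hba-a2 and Beta-s were above 1 FPKM in both libraries. The 15 genes of the sort and of stem cells were all above 0 in both libraries, with sums of 1178 and 1048 FPKM, and Esam alone was past 2-fold. The part of these cells in the values of the 10 genes was not tested.

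**Figure D4:**
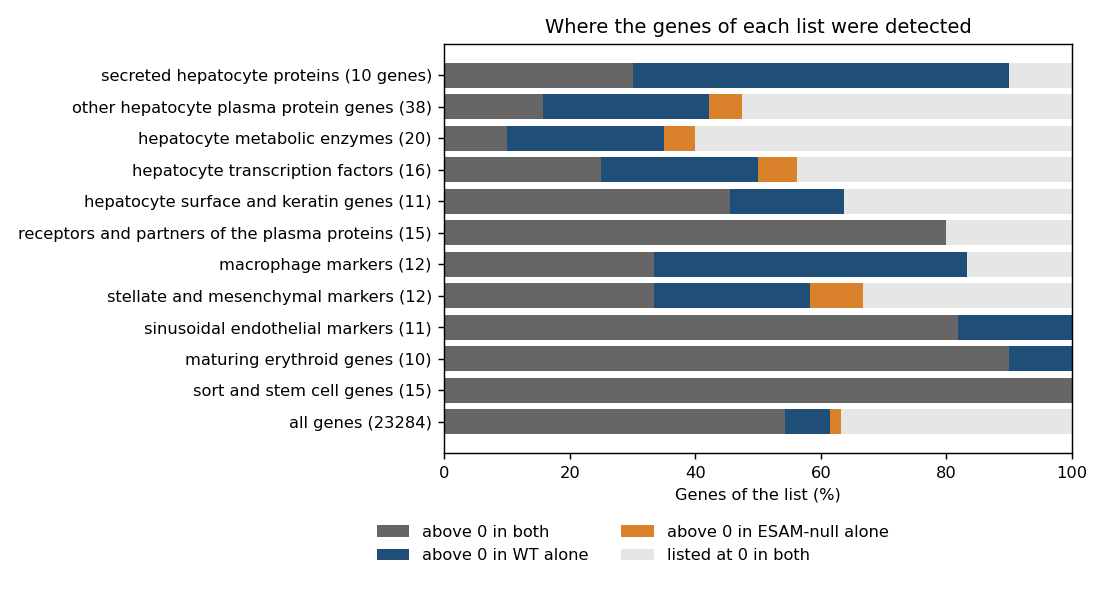
Percent of the genes of each list that are above 0 in both libraries (grey), in WT alone (blue), in ESAM-null alone (orange) or in neither (light grey), with the number of genes in brackets. Of the 10 genes, 6 are above 0 in WT alone and none in ESAM-null alone, and of the 12 macrophage markers 6 are above 0 in WT alone.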

How the data were processed

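E14.5 FL LSK CD48- cells gave 1 WT and 1 ESAM-null library. RNA was extracted with TRIzol, cDNA was made with a low-input kit, sheared to 200 to 500 bp and read as 75 bp single ends. The authors deposited FPKM per gene symbol. Per the submitters' processing notes, the mm10 build was used with Bowtie2 2.2.3 and TopHat2 2.0.13, and Cuffnorm 2.2.1 and SAMtools 0.1.19 are also named. The annotation, Cuffnorm's library normalization setting and the treatment of multiply mapping reads were not given in the sources used, and the last can split the Serpina1 copies.

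For each gene, ESAM-null FPKM was divided by WT FPKM. Genes with at least 1 FPKM in 1 library were counted at 2-fold or more. No pseudocount was used. Reads were approximated from FPKM, the value of 1 read and an effective length (200 bp fragments, SD 80 bp, assumed) of GENCODE M21 or RefSeq transcripts, found for 98.0% of genes. Within 0.05 of a whole read lay 63.7% of 1034 low genes in WT and 69.6% of 598 in ESAM-null, so the reads are approximate and no count test was run. Intervals of single genes are exact at 95%, that of the summed FPKM is not, and 3 reads were the floor.

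All 10 genes were named, with every other plasma protein gene of at least 1 FPKM, up to 6 genes of each other list by mean FPKM, cluster neighbours, near-identical copies and Esam. Itga2b, Itgam, Krt8, Elane, Marco, Emr1, Lyve1, Fcgr2b, Stab1, Stab2, Kdr, Cd48, Slc4a1, Epb4.2, the named list genes at 0 in both libraries and the flanking genes Srprb, Ankrd17, Sik3 and Plrg1 were picked with their values in view. The 10 genes and the lists were chosen with earlier results of these data known. Alternatives were other filters, thresholds, pseudocounts and scalings, summed Serpina1 copies, genes left out in turn and plain transcript length. The steps were tested on simulated data of 22073 genes for ESAM-null against WT. Genes lowered or raised 4-fold were drawn from those with at least 5 FPKM in WT, and 100% were called. Of the 10 genes only Trf reached that level, so calls at the level of the others were not tested. For genes with at least 1 FPKM in WT, 95.7% of intervals held the true ratio. Reads were drawn with counting error alone and the same lengths, so a share near 95% was built in. Scripts ran in Python 3.11.15 with scipy 1.17.1, pandas 2.3.3, numpy 2.4.6 and matplotlib 3.10.9. The Serpina1 copies were aligned with Biopython 1.88. Some genes and sequences are not reported here.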

Additional observations from a re-analysis of the deposited data

How the results depend on the processing

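The 3 of the 10 genes past 2-fold (2 lower and 1 higher in ESAM-null) became 7 (6 lower) with no filter, 5 (4 lower) with a filter of 0.1 FPKM, 1 (0 lower) with 5 FPKM in 1 library and 1 (0 lower) with 1 FPKM in both, since each filter by its construction admits or drops genes listed at 0. At 1.5-fold, 2 genes were higher, Afp being added. The median log2 ratio of 0.62 became 1.14 without Afp, 0.058 without Apoa1 and 1.70 without Trf, since it rests on 3 genes, and -0.55 with genes at 0 in ESAM-null set at 3 reads, an alternative chosen after seeing the data. The ratio of summed FPKM of 0.875 became 0.721 with both libraries rescaled to a total of 1000000 and 0.766 with upper quartile scaling, which lower every log2 ratio by the same amount (shifts of -0.28 and -0.19). It became 1.44 without Trf, also chosen after seeing the data. Under these scalings and median scaling, Apoa1 stayed at least 2-fold higher, Afp higher and Trf lower. The log2 ratio of Afp became 0.345 with the rescaled totals and 0.432 with upper quartile scaling. Its counting interval was not computed again, so Afp may not lie outside counting error under them. No paired analysis was possible because there was 1 library per genotype, so the spread between fetuses is unknown.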
